A study of Mus musculus with 52 samples.

Results

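The 44 genes described here encode proteins of the cell division cycle, and they were followed through every RNA-seq and RiboTag library of a study of beta-catenin signaling in mouse vascular endothelial cells (ECs). They are a set list of textbook cell cycle genes, out of 49585 genes with a transcript in the deposited tables, and all 44 were found. By role they comprise 9 regulators of G1 phase (Ccnd1, Ccnd2, Ccnd3, Myc, E2f1, Ccne1, Ccne2, Cdk2 and Cdkn1a), 9 genes of DNA replication (Mcm2 to Mcm7, Pcna, Rrm2 and Tyms) and 26 genes of G2 phase and mitosis. The last group holds 11 cyclins and kinases (Ccna2, Ccnb1, Ccnb2, Cdk1, Cdc25c, Plk1, Aurka, Aurkb, Ttk, Bub1 and Bub1b), 2 partners of the anaphase-promoting complex (Cdc20 and Ube2c), 6 spindle and midzone genes (Kif11, Kif23, Kif20a, Prc1, Tpx2 and Nusap1), 5 genes of the centromere and the chromosomal passenger complex (Cenpa, Cenpe, Cenpf, Birc5 and Cdca8), and Top2a and Mki67, which encode proteins of the chromatin of dividing cells. The questions are where cells divide in these tissues, and whether stabilized beta-catenin raises the proliferation genes, or the Wnt targets Myc and Ccnd1, in ECs.

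Cells enter the cycle when D-type cyclins and their kinases inactivate the retinoblastoma protein and release E2F factors, which switch on genes of DNA synthesis. Genes of G2 and mitosis follow later and are transcribed almost only in cells that divide, so that their mRNAs serve as a readout of division in a tissue. Most ECs of the adult brain are quiescent, and Myc and Ccnd1 are textbook targets of beta-catenin and its TCF/LEF partners in the intestine and in colon cancer cells.

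RNA-seq was carried out on GFP-positive ECs and GFP-negative parenchymal cells sorted from 3 tissues, namely cerebellum, anterior pituitary and posterior pituitary (24 libraries), RiboTag RNA-seq on cerebral cortex and choroid plexus (16 libraries), and ATAC-seq, which maps open chromatin, on the sorted ECs (12 libraries), always with 2 replicates per group. Sorted cells came from adult male Tie2-GFP mice, in which Tie2 sequences drive GFP in ECs (WT), and from mice labeled Tie2-GFP; Pdgfb-CreER; BcatEx3fl (beta-catenin stabilized). The latter carry 1 Ctnnb1 allele with a floxed exon 3, whose removal by the EC-expressed Pdgfb-CreER yields a beta-catenin protein that escapes degradation, and received 100 µg of 4-hydroxytamoxifen (4HT) at P10; no Cre and no 4HT are stated for the WT mice, so these differ between genotypes together with beta-catenin. Pituitaries of 20 to 30 mice between P30 and P90 were pooled for each replicate. RiboTag mice are male adults labeled RiboTag; Pdgfb-CreER (WT) or RiboTag; Pdgfb-CreER; BcatEx3fl (stabilized). They express an epitope-tagged ribosomal protein wherever Pdgfb-CreER is active, and here both genotypes carried the Cre and received 4HT several weeks before they were taken at 6 to 8 weeks of age. Ribosomes pulled down by the tag give the bound RNA, the homogenate gives the input, and choroid plexi of 3 to 4 animals were pooled.

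Totals of estimated reads ran from 12157485 to 37529274 in the sorted libraries and from 6409013 to 21399125 in the RiboTag libraries. Levels are given as counts per 1e6 reads (CPM) scaled by edgeR's TMM factors, for sorted and RiboTag libraries separately. Levels of different genes are compared only as TPM (transcripts per 1e6 transcripts), which correct for length and were rescaled here to nuclear protein-coding transcripts of at least 300 bases. Summed TPM of 10 endothelial markers was 3346 to 10210 in the ECs and 7.59 to 95.2 in the GFP-negative cells. ECs of the anterior pituitary also held 11470 to 19780 TPM of 8 pituitary endocrine markers. GFP-negative cells of the posterior pituitary held as much of these as those of the anterior lobe, from 126200 to 197700 TPM against 125800 to 182500 TPM. Bound RNA of cortex held 3635 to 5400 TPM of 10 macrophage and microglia markers in WT and 3779 to 4169 TPM in stabilized mice, above its 849 to 1972 TPM of endothelial markers, and bound RNA of choroid plexus held 66470 to 96000 TPM of 6 epithelial markers. The 4 WT cortex libraries have 14699601 to 21399125 reads and 34.7 to 38.8% of deposited TPM in transcripts under 300 bases, against 6409013 to 11688829 reads and 69.7 to 76.9% in the other 12 RiboTag libraries. In cortex, genotype and this difference between libraries cannot be told apart. One library of stabilized anterior pituitary ECs, replicate 2, is called anterior by its title and posterior by its tissue tag, and was kept as anterior. The 8 endocrine markers were at 11870 to 12870 TPM in the 2 libraries of stabilized anterior ECs and 1266 to 3108 TPM in stabilized posterior ECs.

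Mitotic mRNAs were most abundant in ECs of the anterior pituitary and scarce in ECs of the cerebellum. Summed over the 26 genes of G2 and mitosis, the level was 33.5 and 21.9 CPM in the 2 WT libraries of cerebellum ECs, 255 and 193 CPM in the anterior pituitary and 105 and 92.4 CPM in the posterior pituitary. The libraries of the 3 tissues did not overlap. In the GFP-negative cells of the same WT mice the sums were 52 and 25 CPM in the cerebellum, 61 and 73.2 CPM in the anterior pituitary and 56.9 and 76.1 CPM in the posterior pituitary, so that in both pituitary lobes, but not in the cerebellum, the ECs lay above their GFP-negative neighbors. Markers of other cells differed between these WT ECs, with erythroid markers at 22620 to 157200 TPM in the cerebellum, 3521 to 6388 TPM in the anterior and 4126 to 10330 TPM in the posterior pituitary, and pericyte and smooth muscle markers at 1732 to 1860, 544 to 581 and 224 to 308 TPM. Other lists were highest where the mitotic sums were, in the anterior pituitary, with pituitary endocrine markers at 86.0 to 103, 11470 to 19780 and 1260 to 6550 TPM in the 3 tissues in that order, macrophage and microglia markers at 5.62 to 33.2, 62.5 to 89.4 and 3.09 to 20.8 TPM, and immediate early genes at 492 to 2961, 8279 to 10380 and 2220 to 5034 TPM. Their part in the mitotic sums was not tested. Within these bulk samples, fewer dividing cells and less mRNA per dividing cell cannot be told apart.

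Mki67, which encodes the protein that coats mitotic chromosomes and marks cycling cells in pathology, was measured at 13 and 2.1 CPM in WT cerebellum ECs, 75 and 70.2 CPM in the anterior pituitary and 17.2 and 24.7 CPM in the posterior pituitary. Both anterior pituitary libraries thus lay above all 4 others, and the cerebellum replicates differed the most. GFP-negative WT cells had 14.9 and 2.72 CPM in the cerebellum, 9.48 and 24.9 CPM in the anterior pituitary and 17 and 5.91 CPM in the posterior pituitary. In WT bound RNA, Mki67 stood at 1.22 and 10.8 CPM in cortex and 13.4 and 14.3 CPM in choroid plexus. Inputs read 1.72 and 4.1 CPM in cortex, which overlap with the bound RNA, and 1.28 and 2.52 CPM in choroid plexus, below both bound libraries.

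Top2a, the topoisomerase that untangles sister chromatids, followed the same order of tissues, with 1.15 and 0.442 CPM in WT cerebellum ECs, 46.1 and 12 CPM in the anterior pituitary and 10.4 and 31.8 CPM in the posterior pituitary. Neither cerebellum library reached any pituitary library, and the lobes overlapped. Top2a read 3.12 and 1.45, 2.91 and 9.05, and 10.7 and 20.9 CPM in the GFP-negative cells of the 3 tissues in the same order. WT bound RNA held 0.773 and 8.22 CPM in cortex and 1.32 and 4.18 CPM in choroid plexus.

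The sequences upstream of these 2 genes show letters of known elements of mitotic promoters, namely the cell cycle genes homology region (CHR), through which such genes are held silent in resting cells, and CCAAT boxes, which are bound by the activator NF-Y. The 250 bases before the RefSeq start are given 5′ to 3′ on the minus strand of GRCm38.p6, at chr11:99024190-99024439 for Top2a and chr7:135716380-135716629 for Mki67. Capitals mark CCAAT or its complement ATTGG, and the CHR letters TTTGAA or TTCGAA or the complement TTCAAA.
Top2a: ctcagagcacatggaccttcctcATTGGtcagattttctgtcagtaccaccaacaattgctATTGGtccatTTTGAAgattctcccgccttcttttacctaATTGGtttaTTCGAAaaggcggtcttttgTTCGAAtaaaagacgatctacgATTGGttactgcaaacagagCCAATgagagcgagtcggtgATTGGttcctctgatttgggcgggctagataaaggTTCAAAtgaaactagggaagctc
Mki67: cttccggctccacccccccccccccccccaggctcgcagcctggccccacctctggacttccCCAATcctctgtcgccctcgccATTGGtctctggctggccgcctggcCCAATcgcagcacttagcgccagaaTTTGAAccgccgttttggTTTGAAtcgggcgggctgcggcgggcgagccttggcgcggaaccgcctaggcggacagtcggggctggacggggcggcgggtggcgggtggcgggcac
The window of Top2a holds 6 CCAAT and 4 CHR matches and that of Mki67 holds 3 and 2.

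**Figure D1:**
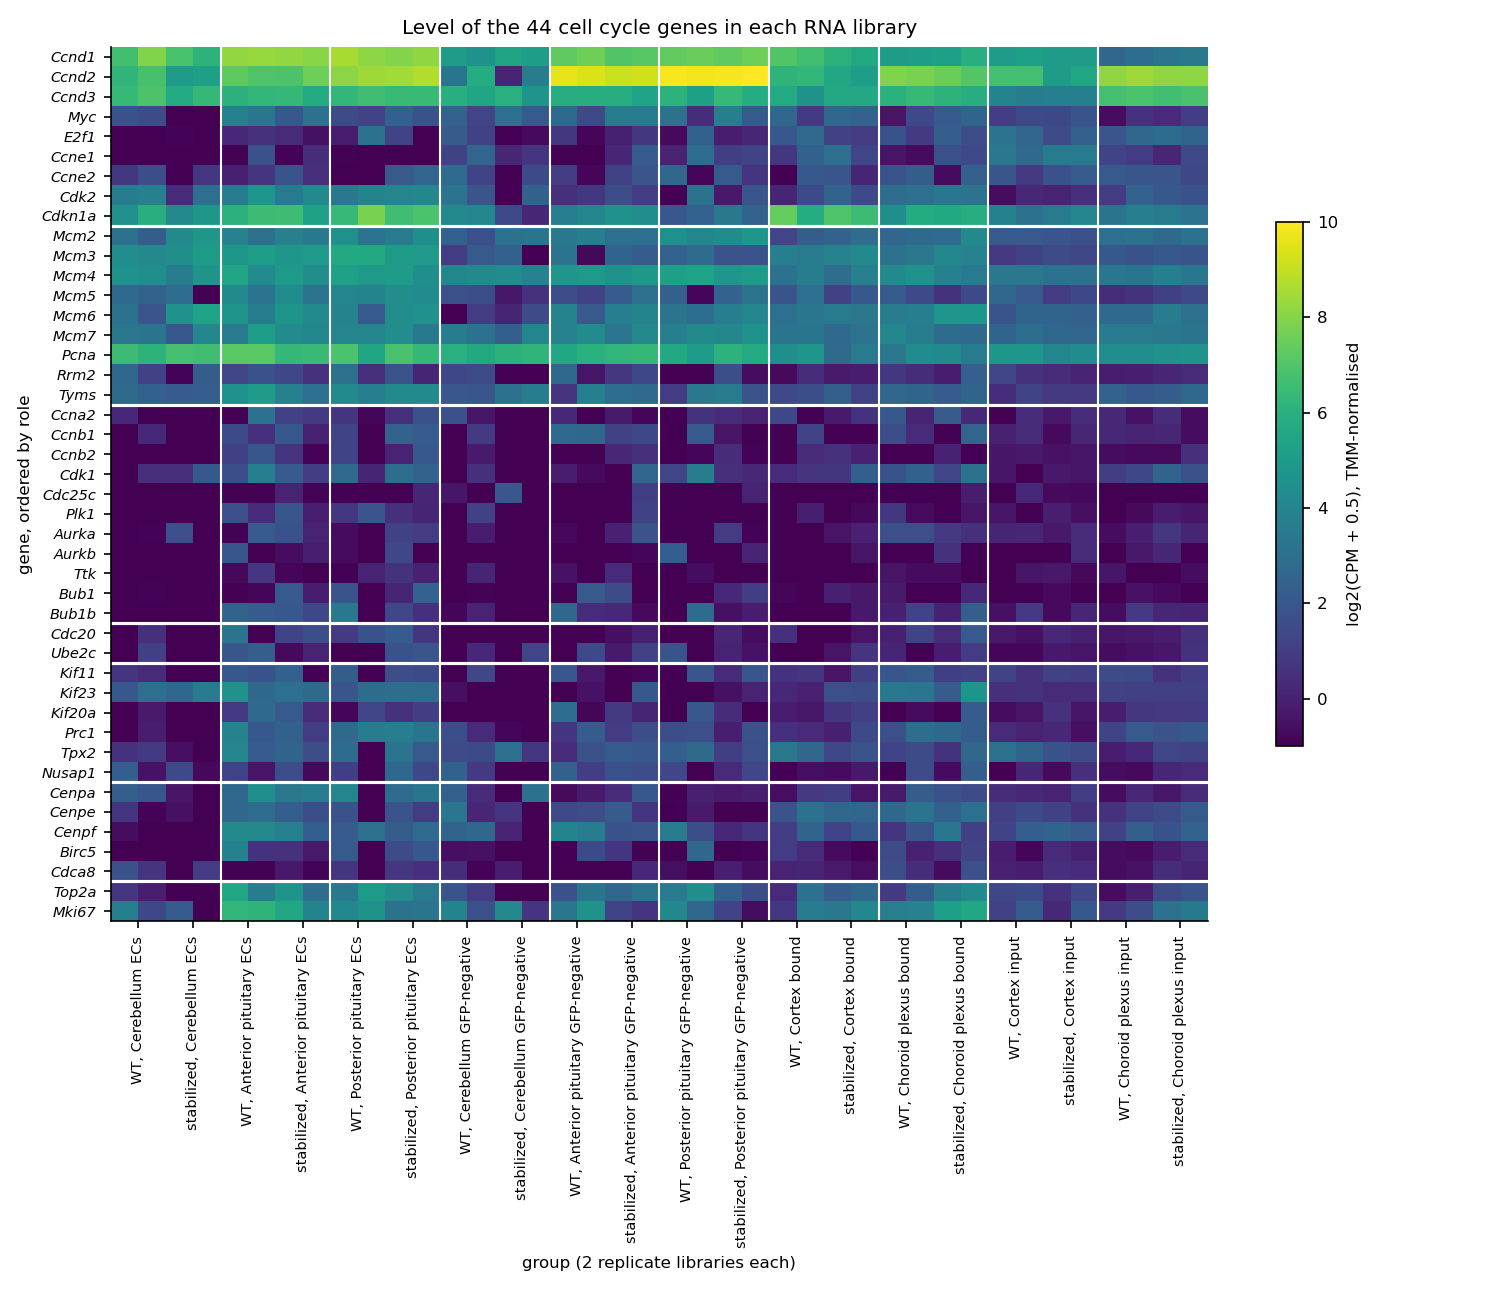
Level of each of the 44 cell cycle genes (rows, with white lines between roles) in each of the 40 RNA libraries (columns, 2 for each of 20 groups), as log2(CPM + 0.5) from dark blue (low) to yellow (high). Most of the 26 mitotic genes are dark in cerebellum ECs and lighter in anterior pituitary ECs, whereas Ccnd1, Ccnd3 and Pcna are light in most groups.

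**Figure D2:**
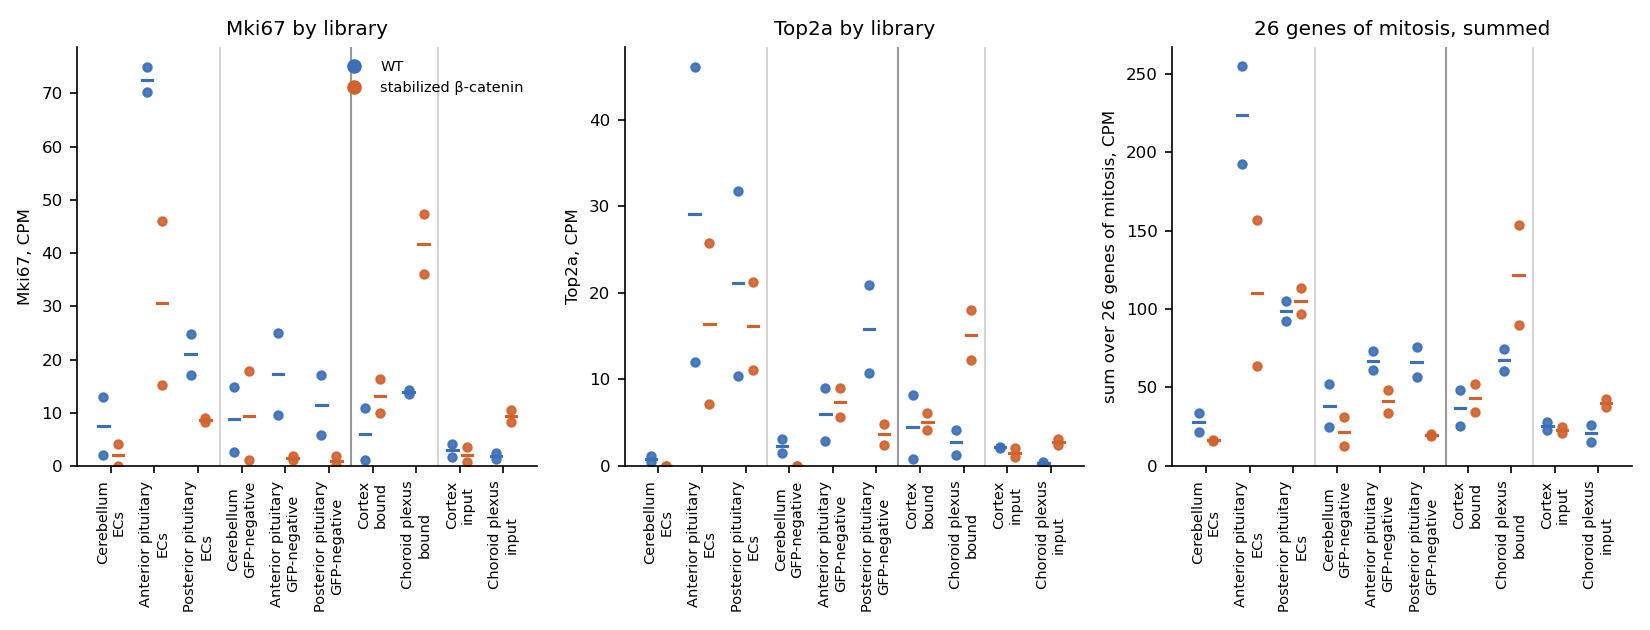
Mki67, Top2a and the sum of the 26 genes of G2 and mitosis by library, in CPM, for WT (blue) and beta-catenin stabilized (orange) samples of each fraction and tissue. Each point is 1 library and each dash the mean of 2, and the 2 WT libraries of anterior pituitary ECs have the highest Mki67, at 75 and 70.2 CPM.

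Between the tissues, few of these differences passed the test. Across all 17915 genes in the fit of the 12 EC libraries, calls required both a change of at least 2-fold and an adjusted p under 0.05 in edgeR's quasi-likelihood test (Benjamini-Hochberg over all genes tested). WT cerebellum ECs against anterior pituitary ECs gave 2 of 44 members, both lower in the cerebellum, where 2.26% of all genes were called lower and 3% higher. Top2a fell by 5.19 on the log2 scale (SE 1.12, edgeR adjusted p = 0.0174), and Cenpf, which encodes a kinetochore protein, by 7.84 (SE 1.74, edgeR adjusted p = 0.0206). Cenpf stood at 0.14 and 0 CPM in cerebellum ECs against 17.7 in both anterior pituitary libraries. In all, 38 of 44 members had a lower mean in cerebellum, with a median difference of -2.15 on the log2 scale against 0 over all genes tested, and 12 members were lower at an unadjusted p under 0.05, where 7.09% of all genes were. DESeq2 called 9 members lower, where it called 12.5% of the genes it gave an adjusted p in either direction. Top2a lost its call with effective transcript length as an offset and without anterior pituitary replicate 1, and both genes without cerebellum replicate 2.

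Another 7 mitotic genes and 2 G1 regulators had no read in either WT cerebellum EC library. One of them, Cdc25c, had none in WT anterior pituitary ECs either, so no bound is given. Taking 3 counts per library as the floor, cerebellum ECs were at least 76-fold lower than anterior pituitary ECs in Birc5, which encodes the passenger protein survivin, and at least 47.5-fold lower in Bub1b, a spindle checkpoint kinase. The bounds were 25.4-fold for cyclin B2 (Ccnb2), 17.9-fold for the mitotic kinase Plk1, 17.4-fold for Aurkb, the kinase of the passenger complex, and 6.56-fold for the checkpoint kinase Ttk. For cyclin E1 (Ccne1) and the transcription factor E2f1 they were 15.2-fold and 8.44-fold. None of these 9 was called by edgeR, and Birc5 differed widely between the anterior pituitary replicates, at 13.8 and 1.01 CPM.

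Against WT posterior pituitary ECs, cerebellum ECs were lower in 35 of 44 members, with a median of -1.45 on the log2 scale against 0 over all genes. Of the 44, 2 were called, again both lower in the cerebellum (2.1% of all genes were called lower and 2.3% higher), and 12 were lower at an unadjusted p under 0.05, where 6.85% of all genes were. They were Top2a, lower by 4.73 (SE 1.09, edgeR adjusted p = 0.0305), and cyclin D2 (Ccnd2), lower by 1.75 (SE 0.315, edgeR adjusted p = 0.00553). The difference in Ccnd2 turned to 1.70 (edgeR adjusted p = 0.465) when effective transcript length entered as an offset, so its direction depends on how its transcripts are weighted. Top2a lost its call with that offset, without cerebellum replicate 2 and without posterior pituitary replicate 2, and both genes lost theirs in a fit of only the groups compared. DESeq2 called 11 members lower and 1 higher, and 12.4% of all genes. Of the pituitary libraries, replicate 2 of the WT posterior ECs had no read for 15 of the 26 mitotic genes, and replicate 1 for 3. Between the 2 lobes no member was called, where 0.994% of all genes were called in either direction, with 4 members at an unadjusted p under 0.05 (11.6% of all genes) and 3 called by DESeq2 (Ccnd2, Ube2c and Myc), which called 8.27% of all genes. Without posterior pituitary replicate 1, edgeR called 3 (Ccnd2, Pcna and Cenpa). Ccnd2, with the smallest p there, was lower in the anterior lobe by 1.15 on the log2 scale (SE 0.31, edgeR adjusted p = 0.132). Ube2c, the ubiquitin-conjugating enzyme of the anaphase-promoting complex, and cyclin E2 (Ccne2), which drives entry into S phase, came next. Both had no read in posterior ECs, against 3.39 and 4.51 CPM of Ube2c (edgeR adjusted p = 0.354) and 0.463 and 1.07 CPM of Ccne2 (edgeR adjusted p = 0.402) in the anterior lobe.

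ECs were then set against the GFP-negative cells of their own tissue, in a fit of all 24 sorted libraries (21343 genes). In the cerebellum, cyclin D1 (Ccnd1) was higher in ECs, where 4.46% of all genes were called higher and 6.89% lower. It rose by 2.58 on the log2 scale (SE 0.378, edgeR adjusted p = 0.000171), from 33.2 and 24.6 CPM in GFP-negative cells to 103 and 243 CPM. Cenpf, at 5.4 and 5.95 CPM in the GFP-negative cells, was lower in ECs by 6.20 (SE 1.70, edgeR adjusted p = 0.0223). Cenpf, but not Ccnd1, lost its call with the length offset and without EC replicate 2. In the anterior pituitary 2 members were higher in ECs (5.46% of all genes called higher and 5.87% lower). The first was Cdkn1a, whose product p21 blocks cyclin-dependent kinases, by 2.48 (SE 0.628, edgeR adjusted p = 0.0132). The second was Pcna, the sliding clamp of DNA polymerase, by 1.40 (SE 0.397, edgeR adjusted p = 0.0263). With effective transcript length as an offset neither was called, Pcna was not called when any 1 of the 4 libraries was left out, and Cdkn1a was not without GFP-negative replicate 1. There 37 of 44 members had a higher mean in the ECs, with a median of 1.80 against -0.0283 over all genes, and 11 passed an unadjusted p of 0.05 upward, against 10.2% of all genes. In the posterior pituitary 3 members were higher in ECs (7.07% of all genes called higher and 7.45% lower). Cdkn1a rose by 5.14 (SE 0.710, edgeR adjusted p = 5.6e-05). Kif23, a motor protein of the cytokinetic midzone, and Rrm2, a subunit of ribonucleotide reductase, had no read in the GFP-negative cells and were at least 45-fold and 38.7-fold higher in ECs (edgeR adjusted p = 0.0302 and 0.0431). Rrm2 read 7.73 and 0.937 CPM in those ECs. Of the 3, only Cdkn1a stayed called without either GFP-negative replicate, and Rrm2 lost its call without EC replicate 1. Ccnd2 had the highest TPM of all members in the WT GFP-negative cells of both pituitary lobes, and in CPM it stood at 782 and 672 CPM in the anterior lobe against 155 and 124 CPM in its ECs (-2.38, SE 0.812, edgeR adjusted p = 0.067), and at 963 and 868 CPM in the posterior lobe against 271 and 344 CPM (-1.57, SE 0.79, edgeR adjusted p = 0.207). Neither pair of groups overlaps, and neither was called.

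In RiboTag RNA, mitotic sums of the WT bound libraries were 25.2 and 48.2 CPM in cortex and 60.4 and 74.4 CPM in choroid plexus, against inputs of 23.1 and 28.2 CPM and 15.6 and 25.8 CPM. Bound choroid plexus RNA lay above its input in both replicates, and bound cortex overlapped with it. In a fit of all 16 RiboTag libraries (18241 genes), 7 of 38 members tested were higher in bound than in input RNA of WT choroid plexus and none lower (8.67% of all genes called higher and 6.64% lower). Ccnd1 was higher by 2.37 on the log2 scale (SE 0.273, edgeR adjusted p = 7.1e-05), Cdkn1a by 1.78 (SE 0.506, edgeR adjusted p = 0.0249) and the helicase subunit Mcm3 by 1.47 (SE 0.392, edgeR adjusted p = 0.0182). Among mitotic genes Mki67 was higher by 2.84 (SE 0.905, edgeR adjusted p = 0.0422), Kif23 by 2.57 (SE 0.751, edgeR adjusted p = 0.0289) and the kinetochore motor Cenpe by 2.39 (SE 0.696, edgeR adjusted p = 0.0284). The median over the 38 members was 1.19 against 0.00935 over all genes. Only Ccnd1 stayed called when bound replicate 2, or either input replicate, was left out, and of these 7 only Ccnd1 with effective transcript length as an offset. Macrophage and microglia markers were at 42.7 to 51.0 TPM in these inputs and 367 to 460 TPM in the bound RNA, endothelial markers at 157 to 159 and 1467 to 1853 TPM, and epithelial markers at 255500 to 259500 and 93550 to 96000 TPM, and their part in these differences was not tested.

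In WT cortex 4 of 38 members were higher in bound RNA and 1 lower (7.46% of all genes called higher and 4.18% lower). Cdkn1a was higher by 3.34 (SE 0.516, edgeR adjusted p = 0.000659), Mcm3 by 2.97 (SE 0.402, edgeR adjusted p = 0.000212), Ccnd1 by 1.73 (SE 0.250, edgeR adjusted p = 0.000376) and cyclin D3 (Ccnd3) by 1.5 (SE 0.292, edgeR adjusted p = 0.00371). Aurka, a kinase of the spindle poles, had no read in the bound RNA of WT cortex and was at least 4.09-fold lower than in the input (edgeR adjusted p = 0.0211), a call that was lost when any 1 of the 4 libraries was left out. A fit of only the groups compared called neither Aurka nor Ccnd3. Macrophage and microglia markers were at 177 to 205 TPM in these inputs and at 3635 to 5400 TPM in the bound RNA, and their part in these differences was not tested.

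Bound RNA of WT cortex and choroid plexus differed in 5 of 37 members, 2 higher and 3 lower in cortex, where 15.8% of all 16775 genes were called higher and 13.9% lower. Ccnd1 (129 and 101 CPM against 32.6 and 35.7 CPM) was higher in cortex by 1.80 on the log2 scale (SE 0.317, edgeR adjusted p = 0.0025), and Cdkn1a by 1.64 (SE 0.546, edgeR adjusted p = 0.0458). Lower in cortex were Ccnd2 by 1.62 (SE 0.254, edgeR adjusted p = 0.00134), Kif23 by 3.94 (SE 0.962, edgeR adjusted p = 0.0126) and Aurka, by at least 18-fold (edgeR adjusted p = 0.0274). With effective transcript length as an offset only Cdkn1a and Aurka of these were called, and without choroid plexus replicate 1 only Ccnd2, Kif23 and Ccnd1. Aurka lost its call when any 1 of the 4 libraries was left out. Macrophage and microglia markers were at 3635 to 5400 TPM in the bound RNA of cortex and 367 to 460 TPM in that of choroid plexus, and their part was not tested. The tissues also differ in the kind of library described above, which cannot be told apart from the tissue.

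The D-type cyclins and Cdkn1a, unlike most mitotic genes, had reads in every EC library. The D-type cyclins activate the kinases that start the cycle. Per unit length, WT cerebellum ECs held 79.6 ± 50.0 TPM of Ccnd1, 46.8 TPM of Ccnd2 and 183 ± 5.65 TPM of Ccnd3 (mean ± SD, n = 2). In the anterior pituitary the Ccnd1 level was 142 ± 6.06 TPM and that of Ccnd3 120 ± 61.6 TPM, and in the posterior pituitary 158 ± 32.2 TPM and 130 ± 22.4 TPM. Myc, a transcription factor that promotes growth and entry into the cycle, was far lower, at 3.05, 14.0 and 2.98 TPM in the ECs of the 3 tissues. Ccnd1 and Ccnd3 did not differ beyond their spread in either pituitary lobe, and Ccnd3 was above Ccnd1 in both cerebellum libraries.

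**Figure D3:**
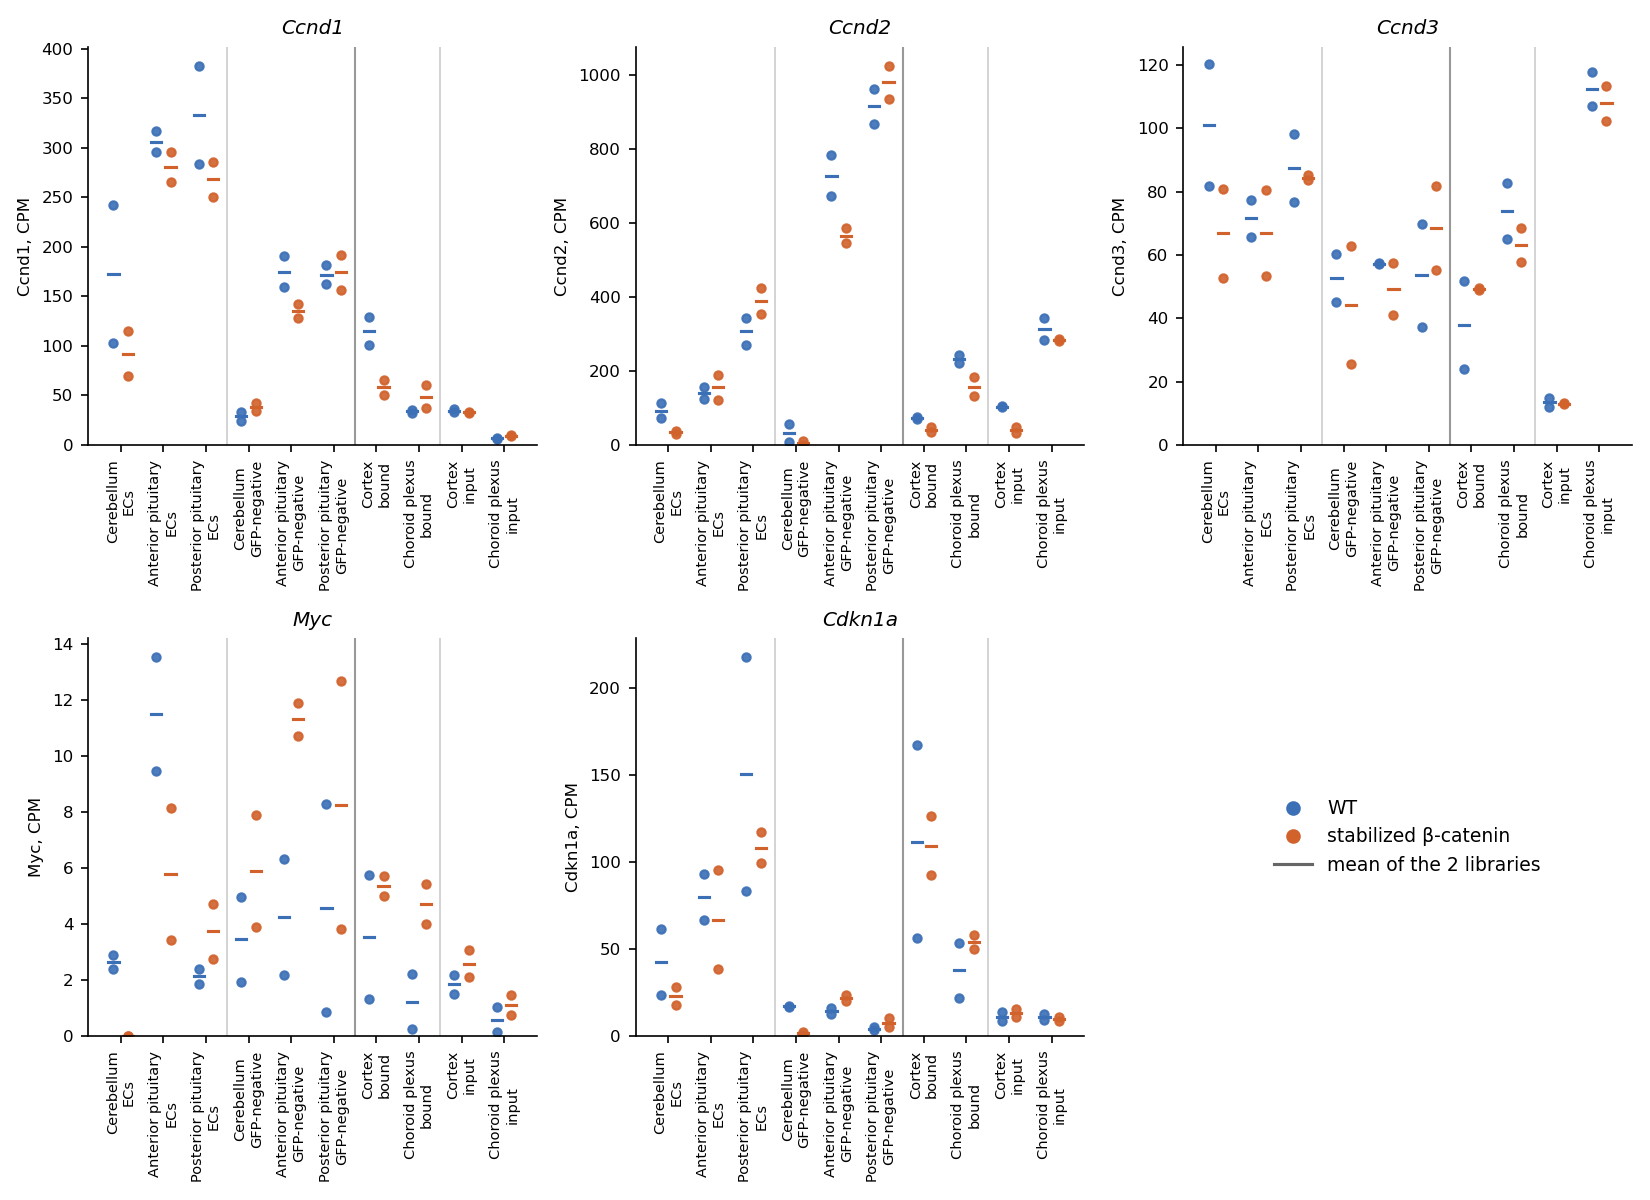
Myc, Ccnd1, Ccnd2, Ccnd3 and Cdkn1a by library in CPM, for all 20 RNA groups, with WT (blue) and beta-catenin stabilized (orange) samples side by side. Each point is 1 library and each dash the mean of 2, and Myc reads 0 in both stabilized cerebellum EC libraries against 2.89 and 2.39 CPM in WT.

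Neither Wnt target was called higher in ECs with stabilized beta-catenin. Ccnd1 (chr7:144929931-144939925, minus strand, GRCm38) read 103 and 243 CPM in WT and 115 and 69.1 CPM in stabilized cerebellum ECs, which overlap, with a log2 difference of -0.93 (SE 0.377, edgeR adjusted p = 0.441). In the anterior pituitary it read 295 and 316 CPM in WT and 296 and 265 CPM in stabilized ECs, a difference of -0.14 (SE 0.373, edgeR adjusted p = 1), with overlapping libraries. In the posterior pituitary the values were 383 and 283 CPM against 250 and 285 CPM, again overlapping, with a difference of -0.34 (SE 0.374, edgeR adjusted p = 0.749). All 3 differences point down.

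Myc (chr15:61985391-61990374, plus strand) had 2.89 and 2.39 CPM in WT cerebellum ECs, from 168 reads in all, and no read in either stabilized library. That is at least 22.4-fold lower with stabilized beta-catenin (edgeR adjusted p = 0.0835), and DESeq2 called it. In anterior pituitary ECs Myc read 13.6 and 9.48 CPM in WT and 3.43 and 8.14 CPM in stabilized mice, which do not overlap, with a difference of -1.01 (SE 1.30, edgeR adjusted p = 0.976). In posterior pituitary ECs the order was the opposite, with 2.4 and 1.87 CPM against 4.73 and 2.77 CPM, a difference of 0.78 (SE 1.30, edgeR adjusted p = 0.866).

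In bound RNA Ccnd1 was lower in stabilized than WT cortex, at 65.8 and 50.7 CPM against 129 and 101 CPM, without overlap (log2 difference -0.96, SE 0.309, edgeR adjusted p = 0.101). It was higher in stabilized choroid plexus, at 37.5 and 60.1 CPM against 32.6 and 35.7 CPM (0.43, SE 0.312, edgeR adjusted p = 0.58). Neither was called. Myc in bound cortex read 5.74 and 1.33 CPM in WT and 5.71 and 5 CPM in stabilized mice, which overlap (0.59, edgeR adjusted p = 0.835). In bound choroid plexus it read 0.24 and 2.21 CPM against 4.02 and 5.42 CPM, which do not (1.87, SE 1.22, edgeR adjusted p = 0.535).

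A known responder moved in the same libraries. Axin2, a feedback inhibitor of the Wnt pathway, went from 1.98 and 1.35 CPM to 76.7 and 106 CPM in posterior pituitary ECs (log2 difference 5.73, SE 1.16, edgeR adjusted p = 0.0291) and from 19.7 and 17.4 CPM to 116 and 114 CPM in bound cortex (2.66, SE 0.266, edgeR adjusted p = 0.00119). It read 87.6 and 96.1 CPM in WT and 303 and 212 CPM in stabilized cerebellum ECs (1.47, edgeR adjusted p = 0.585), and 9.07 and 0.152 CPM against 25.1 and 56.4 CPM in the anterior pituitary (3.12, edgeR adjusted p = 0.404). In bound choroid plexus it read 62.9 and 45.7 CPM against 117 and 109 CPM (0.97, edgeR adjusted p = 0.128). Of 11 general Wnt targets, all measured in ECs, 4 were called higher in the anterior and 6 in the posterior pituitary, 0 in the cerebellum (0.441%, 1.25% and 0.067% of all genes), and of 10 tested in bound RNA 3 in cortex and 4 in choroid plexus (3.65% and 0.656%).

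Across the whole list, 0 of 44 members were called in either direction between stabilized and WT ECs in any of the 3 tissues. The share of all genes called higher was 0.067% in the cerebellum, 0.441% in the anterior and 1.25% in the posterior pituitary, and the share called lower was 0.581%, 0.0167% and 0.541%, each of which corresponds to less than 1 gene in 44. In bound RNA 0 of 37 members tested were called in either tissue, where 3.65% of all genes were called higher and 2.67% lower in cortex, and 0.656% and 0.197% in choroid plexus. At an unadjusted p under 0.05, the members higher and lower numbered 2 and 6 in cerebellum ECs (2.42% and 7.36% of all genes), 0 and 1 in the anterior pituitary (5.33% and 1.66%) and 2 and 0 in the posterior pituitary (6.99% and 5.9%). They numbered 2 and 3 in bound cortex (12.3% and 10.3%) and 3 and 1 in bound choroid plexus (5.92% and 7.95%). DESeq2 called 4, 0 and 2 members in the ECs of the 3 tissues (6.24%, 3.81% and 9% of all genes), and 0 in bound cortex and choroid plexus (11.2% and 3.97%). A difference that misses the threshold with 2 replicates does not show that the genotypes are alike.

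**Figure D4:**
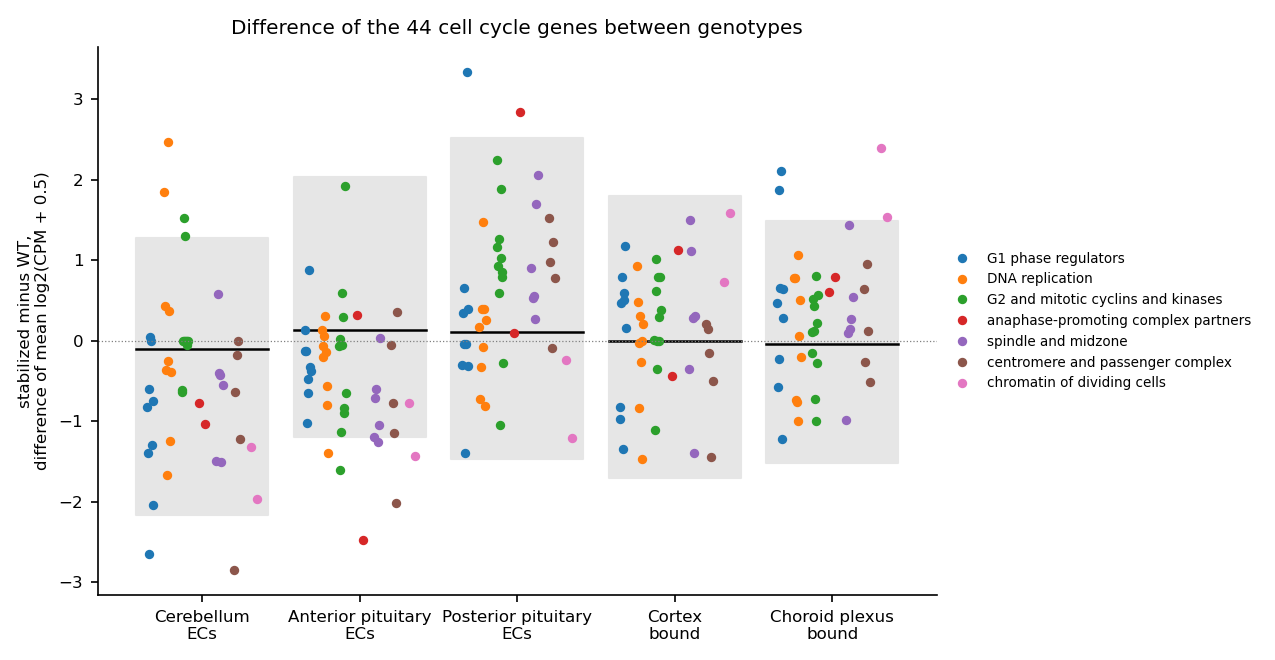
Difference of mean log2(CPM + 0.5) between beta-catenin stabilized and WT samples for each cell cycle gene, in ECs and bound RNA, colored by role. The grey box spans the 5th to 95th percentile of all genes and the black line is their median, and most members lie below that line in anterior pituitary ECs.

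In cerebellum ECs the members' median log2 difference was -0.89, or -0.74 with genes at 0 placed at their bounds, against -0.0763 over all genes, with 9 members higher and 27 lower. The members left had no read in either genotype and count as a difference of 0. They are Ccne1, Birc5 and 6 of the cyclins and kinases of G2 and mitosis. Ccnd2 read 71.8 and 112 CPM in WT and 30.8 and 37.4 CPM in stabilized ECs, without overlap, and the difference of -1.45 on the log2 scale missed the threshold (SE 0.313, edgeR adjusted p = 0.0641). It was called by DESeq2 and without WT replicate 1. Cdkn1a read 23.4 and 61.4 CPM in WT and 17.9 and 27.9 CPM in stabilized ECs, which overlap (-0.92, SE 0.558, edgeR adjusted p = 0.568). Ccnd3 read 81.8 and 120 CPM against 52.7 and 80.9 CPM (-0.62, edgeR adjusted p = 0.536).

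The mitotic sum was 16.8 and 15.7 CPM in stabilized cerebellum ECs, below both WT libraries. Pericyte and smooth muscle markers were also lower there, at 1732 to 1860 TPM in WT and 1082 to 1250 TPM in stabilized ECs, as were endothelial (4584 to 4734 and 3346 to 4127 TPM), fibroblast (11.9 to 22.1 and 0.299 to 5.75 TPM), oligodendrocyte (113.7 to 119.5 and 60.0 to 90 TPM), pituitary stem cell and pituicyte (10.4 to 16.3 and 1.54 to 9.09 TPM), lymphocyte and granulocyte (8.56 to 33.7 and 1.54 to 8.48 TPM) and pituitary endocrine markers (86.0 to 103 and 3.75 to 40.8 TPM). Their part in the sum was not tested. Of the 26 genes 18 and 22 had no read in the 2 stabilized libraries, against 15 and 9 in WT. Top2a had no read in either, which is at least 6.73-fold lower than in WT (53 WT reads, edgeR adjusted p = 0.098). Mki67 read 13 and 2.1 CPM in WT and 4.04 and 0 CPM in stabilized ECs, which overlap (-1.89, SE 1.26, edgeR adjusted p = 0.597). At this depth 3 reads correspond to 0.118 CPM in the stabilized libraries, and a mitotic level below that is not detectable. Leaving out the stabilized replicate 1 gave calls for Mki67 and Mcm5, and leaving out WT replicate 2 a call for Top2a.

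Replication genes were not lower as a group in the cerebellum. Their 9-gene sum was 182 and 135 CPM in WT and 198 and 249 CPM in stabilized ECs, with 5 members higher and 4 lower. Mcm6, a subunit of the replicative helicase, went from 8.47 and 3.2 CPM to 23.7 and 41.7 CPM without overlap (log2 difference 2.48, SE 0.761, edgeR adjusted p = 0.27), and DESeq2 called it. Mcm2, of the same helicase, went from 8.44 and 4.2 CPM to 18.7 and 28.1 CPM (1.88, edgeR adjusted p = 0.429). Mcm3 read 20.6 and 17.5 CPM against 20.9 and 31.7 CPM, and Pcna 92.3 and 67.6 CPM against 107 and 97.1 CPM. Of 28 members above 1 CPM the libraries did not overlap in 5 that were higher (Mcm2, Mcm3, Mcm6, Pcna and Cdk1), against 15.8% of all genes above that level, and in 9 that were lower, against 23.7%.

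Immediate early genes, which cells switch on within minutes of stress or stimulation, also differed in these libraries. Of 10, 3 were called lower in stabilized cerebellum ECs (Egr1 by 4.29, Dusp1 by 3.05 and Ier3 by 2.75 on the log2 scale, named after their values were seen, where 0.581% of all genes were), the median over the 10 was -2.79, and their summed TPM ranged from 492 to 2961 in WT and from 240 to 291 in stabilized ECs. In the anterior pituitary the median was -2.06, with 0 called by edgeR, 10 of 10 lower at an unadjusted p under 0.05 (1.66% of all genes) and 3 called by DESeq2 (3.81% of all genes). Posterior pituitary ECs had a median of -1.48, with 10 of 10 lower, 5 of them at an unadjusted p under 0.05 (5.9% of all genes), 0 called by edgeR and 2 by DESeq2 (9%). In the GFP-negative cells of the cerebellum, which do not express the reporter, 4 were called lower (Ier2, Atf3, Fosb and Egr1, named after their values were seen, where 0.76% of all genes were called in either direction) and the median was -2.70. In bound cortex 9 of 10 were lower, with a median of -0.591, and Egr1 was called (2.67% of all genes were called lower). In bound choroid plexus RNA the order was the opposite, with a median of 1.35, 10 of 10 higher, 5 at an unadjusted p under 0.05 (5.92% of all genes), 0 called by edgeR and 4 by DESeq2 (3.97%). Their part in the cell cycle values was not tested.

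In anterior pituitary ECs 33 of 44 members had a lower mean with stabilized beta-catenin, the median was -0.70 against 0.0638 over all genes, and the median of each of the 7 role groups was below 0. The mitotic sum went from 255 and 193 CPM to 156 and 63.7 CPM, without overlap. Mki67 read 75 and 70.2 CPM in WT and 45.9 and 15.3 CPM in stabilized ECs, which do not overlap (-1.26, SE 1.22, edgeR adjusted p = 0.903). Top2a read 46.1 and 12 CPM against 25.7 and 7.14 CPM, which overlap (-0.84, edgeR adjusted p = 0.942), and Cdkn1a 66.6 and 92.8 CPM against 95.1 and 38.7 CPM (-0.26).

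The members with the smallest adjusted p there, 0.698 for each by edgeR, were Tyms, Pcna and Bub1. Tyms, which encodes thymidylate synthase, read 22.2 and 33.6 CPM in WT and 13.4 and 7.51 CPM in stabilized ECs (-1.42, SE 0.638). Pcna read 145 and 146 CPM against 80.9 and 86.5 CPM (-0.81, SE 0.386). Bub1, a checkpoint kinase, was the only member whose libraries were higher without overlap, at 0 and 0.061 CPM (2 reads) against 3.88 and 0.415 CPM, out of 41 members above 1 CPM, where 26.5% of all genes were. Another 11 members were lower without overlap, against 18.5% of all genes. Macrophage and microglia markers were at 62.5 to 89.4 TPM in WT and 420 to 713 TPM in stabilized ECs, choroid plexus epithelial markers at 4.96 to 16.7 and 128 to 245 TPM, and lymphocyte and granulocyte markers at 0 to 0.718 and 12.5 to 23.5 TPM. Their part in these values was not tested.

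Posterior pituitary ECs showed no such shift. Here 29 members were higher and 15 lower, with a median of 0.293 against 0.01 over all genes, and the mitotic sums of 105 and 92.4 CPM in WT and 114 and 96.6 CPM in stabilized ECs overlapped. By role, 9 of 11 cyclins and kinases of G2 and mitosis were higher (median 1.53), as were 6 of 6 spindle genes (0.369). The 2 partners of the anaphase-promoting complex and 3 of 5 centromere genes (0.558) were also higher, and none of these was called. Mki67 was nevertheless lower in both stabilized libraries, at 17.2 and 24.7 CPM in WT and 8.33 and 9 CPM in stabilized ECs (-1.30, SE 1.23, edgeR adjusted p = 0.693). Top2a read 10.4 and 31.8 CPM against 21.2 and 11.1 CPM, which overlap (-0.41, edgeR adjusted p = 0.924), as do 83.2 and 218 CPM against 99.2 and 117 CPM for Cdkn1a (-0.50, edgeR adjusted p = 0.75).

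Ccne2 and Ube2c, which had no read in WT posterior pituitary ECs, had the smallest adjusted p together with Mcm3. Ccne2 read 3.7 and 5.58 CPM with stabilized beta-catenin, at least 34.9-fold higher (196 reads, edgeR adjusted p = 0.219). Ube2c read 2.96 and 3.23 CPM, at least 23.3-fold higher (130 reads, edgeR adjusted p = 0.301). DESeq2 called both. Mcm3 was lower, at 31.3 and 30.6 CPM against 51.4 and 51.5 CPM (-0.76, SE 0.372, edgeR adjusted p = 0.417). Of 42 members above 1 CPM, 11 were higher and 3 lower without overlap, against 25.9% and 19% of all genes. Without WT replicate 1 the centromere histone Cenpa, at 16.1 CPM in that library and 0 in replicate 2, was called higher. Macrophage and microglia markers were at 3.09 to 20.8 TPM in WT and 701 to 818 TPM in stabilized ECs, and endothelial markers at 9572 to 10210 TPM and 4806 to 4945 TPM. Choroid plexus epithelial markers were at 64.4 to 78.6 TPM in WT and 882 to 1125 TPM in stabilized ECs, fibroblast markers at 50.5 to 69.0 and 16.8 to 22.6 TPM, and 10 targets of p53 other than Cdkn1a at 388 to 420 and 548 to 586 TPM. Their part in these values was not tested.

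The upstream sequence of Mcm3 is shown beside those of the mitotic genes because most replication genes with a known sequence lacked the CHR letters. It lies on the minus strand at chr1:20820313-20820562 (GRCm38.p6, RefSeq), and capitals mark its 3 CCAAT matches.
Mcm3: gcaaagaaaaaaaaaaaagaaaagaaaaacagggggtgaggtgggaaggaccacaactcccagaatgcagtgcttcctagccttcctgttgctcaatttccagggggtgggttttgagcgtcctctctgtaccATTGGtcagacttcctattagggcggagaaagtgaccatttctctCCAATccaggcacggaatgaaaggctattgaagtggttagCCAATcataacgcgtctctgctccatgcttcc
No CHR letters occur in these 250 bases in either strand.

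In bound choroid plexus RNA the genes of dividing chromatin were higher in both stabilized libraries than in either WT library. Mki67 read 13.4 and 14.3 CPM in WT and 36.1 and 47.3 CPM in stabilized mice (1.51, SE 0.752, edgeR adjusted p = 0.417), and Top2a 1.32 and 4.18 CPM against 12.2 and 18 CPM (2.38, SE 1.06, edgeR adjusted p = 0.36). Neither pair of groups overlaps, and neither gene was called. The mitotic sum went from 60.4 and 74.4 CPM to 89.7 and 153 CPM. Ccnd2 went down from 243 and 221 CPM to 182 and 132 CPM (-0.65, SE 0.249, edgeR adjusted p = 0.295), the smallest adjusted p of this comparison. Mcm6 went from 12 and 12.9 CPM to 26.2 and 26.7 CPM (1, SE 0.397, edgeR adjusted p = 0.306), and Ccne1 from 3 reads in the 2 WT libraries to 2.72 and 2.17 CPM (edgeR adjusted p = 0.316). Cdkn1a read 22.1 and 53.3 CPM against 50.2 and 58 CPM (0.44, edgeR adjusted p = 0.783).

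The members' median in bound choroid plexus was 0.434 against -0.0935 over all genes, with 23 higher and 14 lower. Of 40 members above 1 CPM, 9 were higher and 6 lower without overlap, against 19.4% and 22.5% of all genes. Beside this, endothelial markers were at 1467 to 1853 TPM in WT and 2235 to 2828 TPM in stabilized bound RNA, macrophage and microglia markers at 367 to 460 and 518 to 821 TPM, and epithelial markers at 93550 to 96000 and 66470 to 67980 TPM. Fibroblast markers were at 105.5 to 125.9 and 161 to 265 TPM, pericyte and smooth muscle markers at 87.0 to 107.8 and 110.8 to 131.7 TPM, and erythroid markers at 644 to 699 and 274 to 355 TPM. All 10 immediate early genes had higher means in the stabilized libraries, as given above. Their part in these differences was not tested.

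The inputs of choroid plexus had the same order of genotypes in these 2 genes, with 1.28 and 2.52 CPM of Mki67 in WT and 8.29 and 10.5 CPM in stabilized tissue (2.26, edgeR adjusted p = 0.546), and 0.142 and 0.459 CPM of Top2a against 2.48 and 3.11 CPM (3.10, edgeR adjusted p = 0.289). The second smallest adjusted p there, between those of Top2a and Mki67, was that of Tpx2, a spindle assembly factor (1.67, SE 0.489, edgeR adjusted p = 0.479). In that comparison 0 of 29 members were called, where 0.106% of all 16085 genes were, 4 were higher at an unadjusted p under 0.05 (7.41% of all genes in either direction), DESeq2 called 0 (0.489% of all genes), and 13 of 30 members above 1 CPM were higher without overlap and 3 lower (Ccne2, Mcm7 and Kif11), against 20.9% and 20.3% of all genes. With no filter on low counts edgeR called Top2a and Mki67. In these inputs macrophage and microglia markers were at 42.7 to 51.0 TPM in WT and 95.8 to 113 TPM in stabilized tissue, pericyte and smooth muscle markers at 95.1 to 103 and 190 to 254 TPM, and fibroblast markers at 210 to 217 and 305 to 394 TPM. Lymphocyte and granulocyte markers were at 1.78 to 4.10 and 7.74 to 78.8 TPM, endothelial markers at 157 to 159 and 173 to 221 TPM. Immediate early genes were at 49.0 to 49.8 and 59.0 to 102 TPM. The part of these lists was not tested. Whether the genotypes differ by more in bound than in input RNA was tested as an interaction, and 0 of 38 members were called in choroid plexus or cortex (0.312% and 0.565% of all genes were). At an unadjusted p under 0.05 they numbered 1 and 4 (10.6% and 12.6% of all genes), and DESeq2 called 0 in both (1.86% and 3.52%). The smallest adjusted p belonged to Ccne1 in choroid plexus (0.35) and to Aurka in cortex (0.229), where Ccnd1 had a difference of -0.92 (SE 0.347, edgeR adjusted p = 0.286).

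Bound cortex RNA held no called member either. Ccnd2 was lower, at 47.4 and 35.8 CPM against 70.1 and 76.4 CPM (-0.79, SE 0.252, edgeR adjusted p = 0.0991), as was Pcna, at 6.56 and 11.1 CPM against 21.8 and 27.5 CPM (-1.44, SE 0.494, edgeR adjusted p = 0.12), both without overlap. Mki67 read 1.22 and 10.8 CPM in WT and 9.97 and 16.4 CPM in stabilized mice, which overlap (1.2, edgeR adjusted p = 0.384). Top2a read 0.773 and 8.22 CPM against 4.13 and 6.12 CPM (0.26, edgeR adjusted p = 0.927), and Cdkn1a 167 and 56.1 CPM against 126 and 92.4 CPM (-0.03, edgeR adjusted p = 0.999). Without WT replicate 2, Mki67 was called higher. Neuron markers were at 3015 to 3623 TPM in WT and 1500 to 1574 TPM in stabilized bound cortex, oligodendrocyte markers at 2665 to 2827 and 691 to 764 TPM, erythroid markers at 1145 to 1818 and 257 to 288 TPM, and endothelial markers at 849 to 1739 and 1883 to 1972 TPM, and their part was not tested. Of 32 members above 1 CPM, 7 were higher and 7 lower without overlap, against 26.3% and 28.6% of all genes. In cortex input, 2 of 29 members were called lower (8.44% of all genes were called higher and 3.38% lower), namely Ccnd2 by 1.26 (SE 0.188, edgeR adjusted p = 0.00328) and Tpx2 by 1.23 (SE 0.365, edgeR adjusted p = 0.0441). Tpx2 was not called with no filter on low counts, with DESeq2, in a fit of only the groups compared, without WT replicate 1 or without either stabilized replicate, and Ccnd2 was not with the length offset. In these inputs neuron markers were at 6839 to 7026 TPM in WT and 3923 to 5158 TPM in stabilized tissue, and oligodendrocyte markers at 5145 to 7320 and 3638 to 3751 TPM. Endothelial markers were at 104 to 130 and 133 to 150 TPM, choroid plexus epithelial markers at 18.0 to 22.3 and 127.5 to 1400 TPM, and their part was not tested.

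GFP-negative cells, in which Pdgfb-CreER is not expected to act, gave 0 of 44 called members in each tissue (0.76%, 0.0408% and 0.133% of all 19612 genes in the cerebellum, anterior and posterior pituitary). At an unadjusted p under 0.05 they numbered 7, 2 and 2 (10.9%, 5.51% and 9.94% of all genes), and DESeq2 called 6, 1 and 2 (7.24%, 2.26% and 6.22%). The mitotic sums were lower in stabilized than in WT libraries of the anterior pituitary, at 33.7 and 48.5 CPM against 61 and 73.2 CPM, and of the posterior pituitary, at 19.1 and 20.5 CPM against 56.9 and 76.1 CPM, and they overlapped in the cerebellum, at 31.1 and 12.5 CPM against 52 and 25 CPM. Single members did not all follow these sums. In the anterior lobe 25 members were higher and 19 lower, with 7 of 11 cyclins and kinases of G2 and mitosis higher. In the posterior lobe 23 members were higher and 20 lower, with 5 of those 11 higher and 5 lower. Mki67 was lower without overlap in both lobes, at 1.86 and 1.06 CPM against 9.48 and 24.9 CPM in the anterior and 1.88 and 0.138 CPM against 17 and 5.91 CPM in the posterior pituitary. Of 38 members above 1 CPM in the anterior lobe, 8 were lower and 10 higher without overlap, against 19% and 22.7% of all genes. Of 35 in the posterior lobe, 7 were lower and 7 higher, against 18.9% and 25.7%. In the anterior lobe the mitotic sums of both GFP-negative cells and ECs were thus lower in the stabilized libraries. Markers of other cells moved in the same libraries. In the anterior lobe erythroid markers were at 2473 to 2986 TPM in WT and 14650 to 43140 TPM in stabilized GFP-negative cells, lymphocyte and granulocyte markers at 21.4 to 40.2 and 113 to 206 TPM, pericyte and smooth muscle markers at 49.2 to 68.5 and 171 to 343 TPM, fibroblast markers at 441 to 511 and 686 to 906 TPM, and endothelial markers, which were lower in stabilized cells, at 79.0 to 95.2 and 20.0 to 42.1 TPM. In the posterior lobe erythroid markers were at 21.7 to 604 and 5490 to 12240 TPM and fibroblast markers at 288 to 490 and 951 to 1550 TPM. Lymphocyte and granulocyte markers were at 0 to 1.08 and 20.5 to 35.8 TPM there, and pericyte and smooth muscle markers at 11.8 to 67.5 and 132 to 211 TPM. Immediate early genes were lower in stabilized cells, at 5355 to 5827 and 2193 to 3337 TPM in the anterior and 4080 to 6828 and 2327 to 3342 TPM in the posterior lobe. Their part in the mitotic sums was not tested.

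The smallest adjusted p in GFP-negative cells belonged to Top2a and Cdkn1a of the cerebellum. Top2a had no read in stabilized libraries and was at least 9.38-fold lower than its 3.12 and 1.45 CPM in WT (edgeR adjusted p = 0.089). Cdkn1a read 17.5 and 16.8 CPM in WT and 2.27 and 0.649 CPM in stabilized mice (-3.57, SE 0.908, edgeR adjusted p = 0.118), and Cenpf 5.4 and 5.95 CPM against 0.541 and 0 CPM (-4.33, SE 1.61, edgeR adjusted p = 0.344). All 3 were lower without overlap, in cells that were sorted as negative for the endothelial reporter. Of 32 members above 1 CPM in these cells, 10 were lower and 4 higher without overlap, against 26.8% and 14.8% of all genes. Neuron markers were at 944 to 1807 TPM in the WT and 3475 to 4891 TPM in the stabilized cells, endothelial markers at 59.6 to 80.6 and 15.5 to 48.7 TPM, and the libraries held 33096724 and 35930249 reads against 19593463 and 12157485. Macrophage and microglia markers were at 293 to 692 and 243 to 270 TPM. Choroid plexus epithelial markers were at 5.23 to 18410 TPM in WT, where 1 library stood apart, and 3.17 to 107.5 TPM in stabilized cells. Their part in these differences was not tested. In the anterior pituitary Ccne1 had no read in WT and 0.633 and 4.04 CPM in stabilized mice (edgeR adjusted p = 0.63), followed by Ccnb2 and Plk1, also without a read in WT (edgeR adjusted p = 0.771 for both). In the posterior pituitary the order was Rrm2, with no read in WT and 2.59 and 0.138 CPM in stabilized mice (edgeR adjusted p = 0.42), Mki67 (-3.44, SE 1.56, edgeR adjusted p = 0.497) and Cenpf (-2.83, SE 1.48, edgeR adjusted p = 0.532).

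Differences between tissues in the response were tested as interactions. For ECs 0 of 44 members were called in any of the 3 pairs of tissues (0.519%, 0.927% and 0.128% of all genes for anterior pituitary against cerebellum, posterior pituitary against cerebellum, and posterior against anterior pituitary), with 4, 6 and 2 at an unadjusted p under 0.05 (11.7%, 13.8% and 9.09% of all genes) and 2, 5 and 1 called by DESeq2 (5.72%, 8.58% and 3.99%). The members nearest to a call were those that were lower in the cerebellum. Ccnd2 differed between posterior pituitary and cerebellum by 1.77 on the log2 scale (SE 0.436, edgeR adjusted p = 0.0935) and between anterior pituitary and cerebellum by 1.60 (SE 0.436, edgeR adjusted p = 0.179). For Myc the adjusted p were 0.0871 and 0.216 and for Top2a 0.163 and 0.266 by edgeR, with no fold given since neither had a read in stabilized cerebellum ECs. Between the lobes the first were Ube2c, Ccne2 and Pcna (edgeR adjusted p = 0.446, 0.542 and 0.601). For choroid plexus against cortex bound RNA it was 0 of 37 (2.15% of all genes), with 2 at an unadjusted p under 0.05 (17.6% of all genes) and 0 called by DESeq2 (6.73%). The smallest adjusted p was that of Ccnd1 (1.39, SE 0.439, edgeR adjusted p = 0.144), before Aurka (0.224) and Pcna (0.341). With no filter on low counts edgeR called Ccnd2 and Top2a for both pituitary lobes against the cerebellum, Myc for the posterior lobe against the cerebellum, and Ccnd1 for bound RNA. Leaving out single libraries gave 0 to 2 members in each of the pairs with the cerebellum and 0 to 1 between the lobes.

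A further 73 genes of the cycle, which include other CDK inhibitors, pocket proteins, licensing factors and mitotic genes, were examined in the same fits. Of the 70 tested in ECs 0 were called between genotypes, with 3 higher and 6 lower at an unadjusted p under 0.05 in the cerebellum (2.42% and 7.36% of all genes), 1 and 2 in the anterior (5.33% and 1.66%) and 2 and 1 in the posterior pituitary (6.99% and 5.9%), DESeq2 calls of 5, 2 and 1 (6.24%, 3.81% and 9%), and medians of 0, -0.459 and 0.327 on the log2 scale. Of the 60 tested in bound RNA 0 were called (medians 0.319 in cortex and 0.0871 in choroid plexus). The shares of all genes called higher and lower were 3.65% and 2.67% in cortex, and 0.656% and 0.197% in choroid plexus. At an unadjusted p under 0.05, 1 was higher and 1 lower in cortex (12.3% and 10.3% of all genes), and 2 and 2 in choroid plexus (5.92% and 7.95%). DESeq2 called E2f4 in cortex and Rfc4 in choroid plexus (11.2% and 3.97% of all genes). In the GFP-negative cells of the cerebellum 2 of 67 (0.76% of all genes in either direction) were called lower with stabilized beta-catenin, Cdkn1c by 5.75 (SE 1.11, edgeR adjusted p = 0.0359) and Cdk6, a kinase partner of the D-type cyclins, by 3.97 (SE 0.782, edgeR adjusted p = 0.0388). In cortex input 3 of 51 (8.44% of all genes) were called higher, namely the chromosome motor Kif22 by 2.67, Cdkn1c by 1.53 and the E2F family member E2f4 by 1.33 (edgeR adjusted p = 0.0276, 0.00101 and 0.00269). Between WT cerebellum and anterior pituitary ECs, 2 CDK inhibitors were higher in the cerebellum and 1 gene lower (3% and 2.26% of all genes). Cdkn2b, which encodes p15, read 33.7 and 28.9 CPM in cerebellum ECs, had no read in anterior pituitary ECs (edgeR adjusted p = 0.00855), and read 0 and 0.0688 CPM in the GFP-negative cells of the cerebellum (edgeR adjusted p = 0.0253). Cdkn1c, which encodes p57, read 38.4 and 114 CPM against 13.5 and 21.2 CPM in the anterior pituitary, higher by 2.14 (SE 0.481, edgeR adjusted p = 0.0191). The condensin subunit Smc4 read 22.1 and 35.8 CPM against 76.3 and 72.1 CPM, lower by 1.36 (SE 0.357, edgeR adjusted p = 0.047). Against GFP-negative cells, 2 of 71 were higher and 1 lower in WT cerebellum ECs (4.46% and 6.89% of all genes), 1 was higher in the anterior pituitary (5.46%), and 1 was higher and 1 lower in the posterior pituitary (7.07% and 7.45%). Anln, which encodes the cytokinesis protein anillin, read 0 and 0.111 CPM in cerebellum ECs against 19.0 and 100.1 CPM (edgeR adjusted p = 0.0204). In the posterior pituitary Lin9, a subunit of the DREAM complex, read 6.20 and 2.11 CPM in ECs and had no read in GFP-negative cells (edgeR adjusted p = 0.0196), and Cdk6 was lower in ECs by 3.77 (SE 1.06, edgeR adjusted p = 0.0206). Rbl1, which encodes the pocket protein p107, was higher in WT cerebellum ECs than in GFP-negative cells by 3.62 (SE 0.958, edgeR adjusted p = 0.0172), and the retinoblastoma gene Rb1 higher in anterior pituitary ECs by 2.48 (SE 0.464, edgeR adjusted p = 0.00134). In WT cortex 4 of 64 were higher in bound than in input RNA and 1 lower (7.46% and 4.18% of all genes), led by Cdkn2b (5.41 and 7.9 CPM against 0.404 and 0.195 CPM, edgeR adjusted p = 0.01) and with Cdkn1c higher by 3.33 (SE 0.354, edgeR adjusted p = 2.68e-05). The counts in choroid plexus were also 4 and 1 (8.67% and 6.64% of all genes), led by the spindle protein gene Spag5, higher by 4.48 (SE 1.33, edgeR adjusted p = 0.0311). In bound RNA of WT cortex against choroid plexus, 5 of 60 were higher and 3 lower in cortex (15.8% and 13.9% of all genes). Mcm10 was lower (edgeR adjusted p = 0.0241). Cdkn2b was higher by 3.61, Cdkn2d by 3.56 and Fen1 by 3.46 (edgeR adjusted p = 0.042, 0.012 and 0.0317). The difference in library kind given above applies here too.

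Open chromatin at the members' starts was compared by the presence of peaks, which does not show how far accessibility varied. An ATAC-seq peak (fold enrichment over 2 and -log10 q over 2) within 1000 bp of a start was found in all 12 libraries for 39 of 44 members. The exceptions were Ccnd1 (7 libraries), Myc and Tyms (10 each), and Ccnb2 and Bub1b (11 each). In both replicates of WT ECs 41 members had such a peak in the cerebellum, 43 in the anterior and 40 in the posterior pituitary, where 49.7%, 56.7% and 50.2% of 21938 genes had one, and in stabilized ECs 43, 44 and 44, where 52.9%, 57.2% and 53.3% did. The mitotic genes thus had peaks at their starts in cerebellum ECs as well, where most had few or no reads. A peak present in both stabilized replicates and in neither WT replicate, called gained here, was found at the start of Tyms in the cerebellum (1.58% of all genes) and of Ccnd1 in the posterior pituitary (1.94%), and at no member in the anterior pituitary (0.538%). No member lost its peak in this sense (0.196%, 0.456% and 0.15% of all genes). Neither gain remained under stricter limits (enrichment above 4-fold, -log10 q above 5), where the gained peak was at Myc in the cerebellum and at Tyms in the posterior pituitary.

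Around Ccnd1, within 100 kb of the gene, 3 of 13 stabilized peaks were gained in the cerebellum, 1 of 11 in the anterior and 3 of 8 in the posterior pituitary, where 18.2%, 7.66% and 29.2% of all peaks were. None of its 8, 6 and 5 WT peaks was lost, where 2.78%, 5.83% and 2.62% of all were. Stabilized libraries held more peaks in all in the cerebellum (43412 and 40751 against 31795 and 29162 in WT) and posterior pituitary (36356 and 51661 against 26400 and 25684). In the anterior pituitary the totals overlapped (48942 and 52393 against 45518 and 60240). The part of these totals in the gains was not tested. A gained peak inside the gene appeared in 2 tissues, at chr7:144937566-144937835 in the cerebellum (4.83- and 4.7-fold enrichment in the 2 stabilized replicates) and chr7:144937507-144937775 in the posterior pituitary (3.86- and 3.81-fold), in an intron 2224 and 2284 bp from the start. Others lay at 32715 bp from the start (3.73- and 4.02-fold) and at -84946 bp, where a negative distance is upstream (3.9- and 10.4-fold), in the cerebellum, and at -33692 bp in the posterior pituitary (5.21- and 5.79-fold). That at -84946 bp lies beside a peak of both WT replicates and is part of a wider peak in stabilized replicate 2, where it is not a separate site. Some gained sites had peaks in WT ECs of another tissue. The intronic site had one in WT anterior pituitary replicate 2 (3.69-fold). The site at -33692 bp had one in both WT cerebellum libraries (7.02- and 6-fold). For Myc 0 of 3 peaks were gained in the cerebellum, 2 of 7 in the anterior and 2 of 4 in the posterior pituitary, of which the nearest to the start lay in the posterior pituitary at -1921 bp (4.08- and 3.9-fold). Both WT libraries of the cerebellum and of the anterior pituitary also had a peak at that site. The counts of gained peaks are small, and they stand beside RNA levels of Ccnd1 and Myc that were not called higher.

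The central 200 bases of the peaks were searched on both strands for the TCF/LEF letters TTCAAAG and ATCAAAG. Of the 11 gained peaks near Ccnd1 and Myc, 1 held a match, against 13.4%, 22% and 15.1% of all gained peaks in the 3 tissues. It is the anterior pituitary peak at chr7:144907878-144908077, which lies 31947 bp downstream of the Ccnd1 start in an intron of the antisense gene Gm39119 (4.63- and 3.38-fold). Both WT cerebellum libraries also had a peak at this site (5.09- and 7.18-fold). The sequence of the anterior pituitary peak is given with that of the intronic cerebellum peak, chr7:144937601-144937800, both on the minus strand of GRCm38. Capitals mark the match, which reads as the complement CTTTGAA.
Ccnd1, anterior pituitary peak: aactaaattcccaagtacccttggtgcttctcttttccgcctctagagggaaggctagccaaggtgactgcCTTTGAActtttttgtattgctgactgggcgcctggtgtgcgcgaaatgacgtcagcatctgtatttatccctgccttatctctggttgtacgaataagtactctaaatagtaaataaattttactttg
Ccnd1, cerebellum peak: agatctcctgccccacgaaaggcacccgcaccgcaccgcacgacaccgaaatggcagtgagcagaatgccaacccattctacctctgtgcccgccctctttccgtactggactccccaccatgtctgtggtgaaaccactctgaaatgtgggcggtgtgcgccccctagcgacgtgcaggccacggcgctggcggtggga
The second sequence holds no match.

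**Figure D5:**
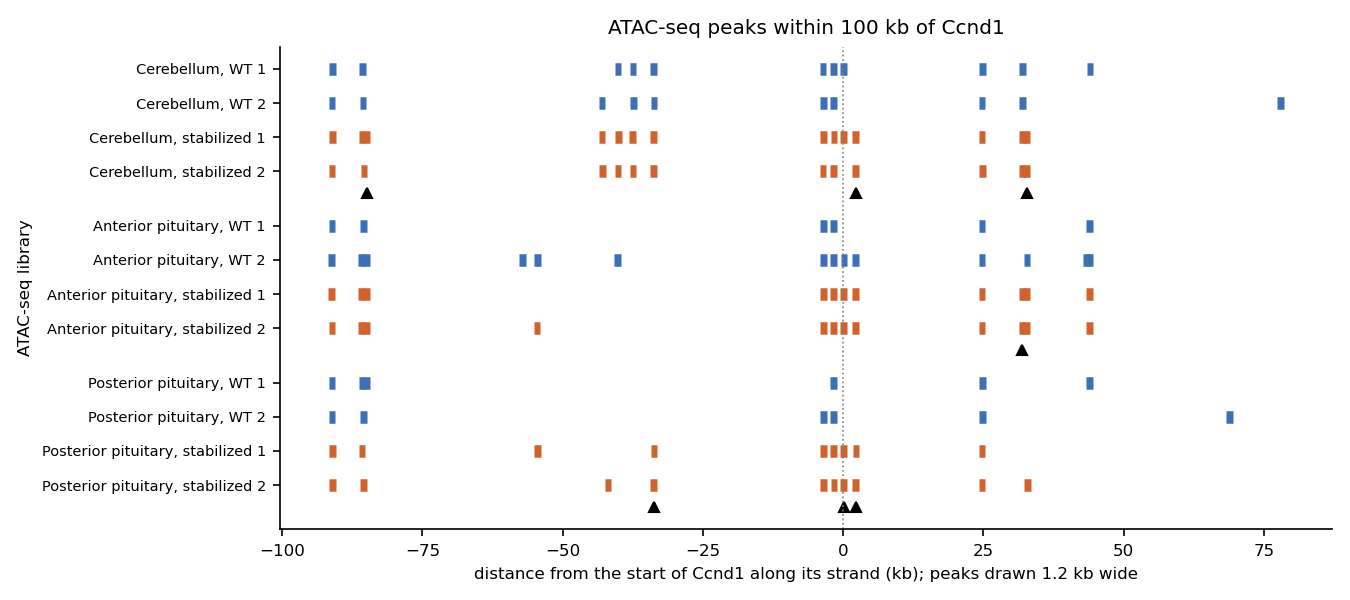
ATAC-seq peaks near Ccnd1 in each of the 12 EC libraries (rows), by distance from the gene's start in kb. Bars are peaks, drawn 1.2 kb wide so that they can be seen, and triangles mark gained peaks, which are those of both stabilized but neither WT library of a tissue, 3 in the cerebellum, 1 in the anterior and 3 in the posterior pituitary.

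In the 300 bases around the start (250 before and 50 after, from RefSeq on GRCm38.p6), 34 of the 44 members had a sequence. Ccnd1 and Myc were not among them, so the promoters of these Wnt targets were not searched. CCAAT, read on both strands, occurred in 28 of them (82.4%), against 41.1% of 27025 genes. The CHR letters TTTGAA or TTCGAA occurred in 19 (55.9%, against 21.7%), in 0 of 5 G1 regulators, 2 of 8 replication genes and 7 of 8 cyclins and kinases of G2 and mitosis. In only the 250 bases before the start they occurred in 11 (32.4%, against 19.6%), with 3 of those 8. The E2F letters TTTCCCGC, TTTGGCGC or TTTCGCGC occurred in 6 (17.6%, against 2.12%), of which 4 are Mcm genes (Mcm3, Mcm5, Mcm6 and Mcm7) and the others Cdk2 and Cdk1. TTCAAAG or ATCAAAG occurred in 4 (11.8%, against 9.88%), namely Cdk1, Aurka, Bub1b and Ube2c, and since TTCAAA is the complement of TTTGAA, each TTCAAAG is also counted as a CHR match. These matches describe letters and do not show that a factor binds.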

How the data were processed

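RNA was amplified with NuGEN Ovation kits and sequenced for 75 cycles from 1 end, and per the authors' notes transcripts were quantified with Salmon 0.10.2. The deposited tables give estimated counts and TPM per transcript, which the authors computed without molecular identifiers. Per the methods Salmon detected the library type, strand included, by itself and dropped mappings that did not match it, and the type it found is not given in the sources used here. Estimated counts were summed per gene (GENCODE M21, GRCm38), rounded and tested with edgeR 4.0.16 (quasi-likelihood, TMM, filterByExpr, Benjamini-Hochberg). Calls need at least a 2-fold change with an adjusted p under 0.05, or that p alone for interactions. Standard errors are the absolute log2 fold change over the root of F. The 12 EC, 12 GFP-negative, 8 bound and 8 input libraries were fitted separately, or the 24 sorted and 16 RiboTag libraries together where fractions are compared. The study's own tests used EBSeq, which was not run. Alternatives included DESeq2 1.42.0.

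Deposited TPM sum over short transcripts that differ between libraries, so TPM were rescaled to nuclear protein-coding transcripts of at least 300 bases. The ATAC-seq peak lists, made by the authors with Bowtie2 2.3.2 and MACS2 2.1.1.20160309, were deposited per library with a fold enrichment, a -log10 q and a score, and the score was not used. Peaks carry no read counts, so only their presence was compared. Sequences come from RefSeq tables (GRCm38.p6) and from the genome of that build.

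All 44 members are accounted for by role. Values per library are given for Myc, Ccnd1, Cdkn1a, Mki67 and Top2a. For each comparison at most 6 called members with the greatest change are named, or the 3 with the smallest adjusted p where none was called, and up to 4 called genes of the other cell cycle list. Members, lists and tests were chosen with earlier results of these data known.

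The methods describe the replicates as biological. Replicates differed by 5.91 to 452 in chi-square per gene, and none is a duplicate. Intervals and floors of 3 counts cover counting error only. The fits were checked on simulated counts.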

Additional observations from a re-analysis of the deposited data

How the results depend on the processing

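Between stabilized and WT ECs, members called rose from 0 to 5 in the cerebellum with no filter on low counts (Ccnd2, Top2a, Myc, Mcm6 and Cenpa), to 4 with DESeq2 and to 1 with the replicate block (Ccnd2), and to 2 in the posterior pituitary with DESeq2. For the differences of genotype effects they rose from 0 to 2 and 2 for anterior pituitary minus cerebellum and to 3 and 5 for posterior pituitary minus cerebellum (no filter and DESeq2), to 1 for posterior minus anterior pituitary (DESeq2) and to 1 for choroid plexus minus cortex bound RNA (Ccnd1, no filter). In GFP-negative cells they rose from 0 to 2 (no filter) and 6 (DESeq2) in the cerebellum and, with DESeq2, to 1 in the anterior and 2 in the posterior pituitary.

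For WT ECs of cerebellum against anterior pituitary the count went from 2 to 5 (no filter), 1 (length offset) and 9 (DESeq2), against posterior pituitary from 2 to 4, 0 and 12, and to 0 with only the groups compared, and between the lobes from 0 to 1 (no filter) and 3 (DESeq2). For ECs against GFP-negative cells it went from 2 to 4 (no filter), 1 (length offset), 6 (DESeq2) and 1 (only the groups compared) in the cerebellum, from 2 to 7, 0, 9 and 5 in the anterior pituitary and from 3 to 5 (no filter) and 8 (DESeq2) in the posterior pituitary. WT bound cortex against choroid plexus went from 5 to 3 (replicate block), 2 (length offset) and 8 (DESeq2), bound against input from 5 to 3 in cortex (only the groups compared) and from 7 to 2 in choroid plexus (length offset). Cortex input went from 2 to 4 (length offset) and to 1 with no filter, the replicate block, DESeq2 or only the groups compared, and choroid plexus input from 0 to 2 with no filter (Top2a and Mki67).

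Leaving out single libraries gave 0 to 2 members in cerebellum ECs, 0 to 0 in anterior and 0 to 1 in posterior pituitary ECs, and 0 to 1 in bound cortex, with the libraries that decide these named in the text. It gave 0 to 2, 0 to 2 and 0 to 1 for the EC interactions in the order above and 0 to 1, 0 to 0 and 0 to 0 in GFP-negative cells. For WT ECs it gave 1 to 2 for cerebellum against anterior pituitary (Ccnd1 alone without cerebellum replicate 2, Cenpf alone without anterior pituitary replicate 1), 2 to 4 for cerebellum against posterior pituitary (4 without posterior pituitary replicate 1) and 0 to 3 between lobes (Ccnd2, Pcna and Cenpa without that library). Against GFP-negative cells it gave 1 to 4, 1 to 1 and 2 to 4, in the anterior pituitary Cdkn1a alone, or Mcm3 without GFP-negative replicate 1. It gave 3 to 6 for WT bound cortex against choroid plexus (3 without choroid plexus replicate 1), 4 to 5 and 1 to 4 for bound against input in cortex and choroid plexus, and 1 to 2 in cortex input. Where 1 sample is left in a group, it is assumed to vary like the others.

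The log2 difference of Ccnd2 between WT cerebellum and posterior pituitary ECs reversed to 1.70 with the length offset and to 0.405 and 0.419 in deposited TPM with pseudocounts of 0.1 and 1. With a window of 5000 bp no member counted as gained in the posterior pituitary (0 in place of 1), since the WT libraries held other Ccnd1 peaks in that window. CHR letters occurred in 11 in place of 19 members with only the 250 bases before the start. RLE normalization changed no count by over 1.5 times.

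Samples that share a replicate number showed no clear shared deviation, with correlations of -0.253 to 0.114 and 2 pairs per comparison, so the numbers were not taken as pairs. Per the methods, inputs were aliquots of the homogenates used for the pull-down, so bound and input samples may be tied. Their correlations in WT were 0.0677 in cortex and 0.104 in choroid plexus. Those of WT ECs with GFP-negative cells were 0.114 in the cerebellum, 4.7e-05 in the anterior and 0.0959 in the posterior pituitary. Beside the counts given, the replicate block left bound against input at 5 and 7. With 2 replicates, 2-fold differences were seldom called in simulated counts. Many mitotic genes were near 0 reads in cerebellum ECs. The simulation changed only genes with more reads, so it cannot show how often differences in such genes would be called. The interactions in bound RNA and the input comparisons were added after seeing the data.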
